A study of Mus musculus with 12 samples.

Results

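Mouse embryonic fibroblasts that lack Atm, a kinase activated by DNA double-strand breaks, were compared 72 h after irradiation with 4.32 Gy (Irradiated Atm-KO, 3 samples) and without irradiation (Nonirradiated Atm-KO, 3 samples). These are 6 of the 12 samples of the series, chosen by their labels. The other 6 are Atm-WT fibroblasts with and without the same irradiation. These wild-type samples show where the knockout cells differ, and also enter the fits' estimate of spread and the choice of features tested. Each sample was hybridised to 1 single-colour whole-genome array. The knockout allele, the number of embryos behind the cells and the dose rate are not given in the sources used here. Nothing says that the replicates were separate cultures, so p-values measure only how far these samples vary, which may be technical variation.

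After ionising radiation, ATM normally activates the checkpoint kinase CHK2 and stabilises p53, which switches on inhibitors of the cell cycle. Cells without ATM still have the related kinases ATR and DNA-PK, are radiosensitive, and are known to carry unrepaired DNA that cytosolic sensors can detect. Those sensors induce interferon and, with NF-kB, the secreted chemokines, cytokines and proteases that also mark senescent fibroblasts.

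Levels are log2 signal minus the array's 75th percentile, so 0 is the level of that percentile and 1 unit is a factor of 2. Set between groups, a difference is irradiated minus nonirradiated, with n = 3 arrays a group. The ± is its standard error in the paired fit described below, which leaves out spread between pairs and draws on both genotypes. Without pairing it can be larger, as for C1qc at 0.84 against 0.21. The Atm probe used, 1 of 2, read -5.43, -7.01 and -6.20 in nonirradiated and -5.66, -7.50 and -6.48 in irradiated knockout samples, and was well above background on 1 of the 6 arrays. Whether these probes lie in the deleted part is not given, so they do not fully check the label. All 15 fibroblast identity genes, among them collagens, Pdgfra and Vim, were well above background on all 6 arrays. Of 15 macrophage and blood cell markers on the array, 6 were above background on all 6 arrays, and Ptprc, Itgam and Laptm5 were on none.

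Same-numbered samples shared a slide, and nonirradiated samples always lay at positions 1 or 3 and irradiated ones at 2 or 4, so irradiation cannot be told apart from array position. Knockout pair 1 lay on slide 2 with wild-type pair 3, and knockout pairs 2 and 3 shared slide 3. The first pair, which cannot be told apart from its slide, stood apart. Its nonirradiated array correlated at 0.969 to 0.973 with the 4 arrays of the other pairs and its irradiated array at 0.951 to 0.962, against 0.986 to 0.994 among those 4. The 75th percentile of signal was 708 on irradiated array 1 and 430 to 513 on the other 5. Within the first pair the median difference over all 18430 features was -0.27, against 0.025 and 0.015 in the other pairs. Results are therefore also given without the first pair where it changes them.

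Without pairing, limma called 1 feature of 18430 at an adjusted p of 0.05 (0.00543%), with 1462 (7.93%) at an unadjusted p below 0.05. That gene was Lhx5, a LIM homeobox gene of neural development. Lhx5 lay at -6.21, -5.90 and -6.53 in nonirradiated samples 1 to 3 and -3.59, -3.15 and -3.54 in irradiated samples 1 to 3. It was not well above background on any nonirradiated array, so the irradiated level was at least 4.07-fold higher (adjusted p = 0.0194). Lhx5 was tested through its irradiated arrays, and its p rests on nonirradiated values below background. With normexp background correction its difference of 2.78 was 0.75, and limma called 0 features without pairing (697 at an unadjusted p below 0.05).

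Same-numbered samples were then paired in the fit, which assumes that they belong together. That fit called 377 features (2.05%), 218 higher (1.18%) and 159 lower (0.863%), and 3793 (20.6%) had an unadjusted p below 0.05. All 377 had the same sign in all 3 pairs, and for 266 of them the groups did not overlap, against 3160 of all features (17.1%). Of the 377, 310 were well above background on all 6 knockout arrays, against 16814 of all 18430 features. For 26 of them no probe was well above background on any nonirradiated knockout array, and for 2 on any irradiated one. Those calls rest on values below background in that group. From here on, "rose", "fell", standard errors and adjusted p refer to limma's paired fit, and of the genes named only Lhx5 also passed without pairing. The paired count was 167 without the first pair, of which 133 were among the 377, 340 without the second and 19 without the third. Without replicate 1 of all 4 groups it was 0 in limma's paired fit, with 3370 features at an unadjusted p below 0.05. It was 11 when fitted on the 6 knockout arrays alone and 52 with normexp background correction. With normexp 3 kinetochore genes, 5 nucleic acid sensors, 2 antiviral genes, 1 GTPase, 1 class I gene and 2 proteases or inhibitors were called, and on the knockout arrays alone 1 sensor and 1 chemokine were the only calls within lists. Normexp also moved the differences of 23 of the 80 named genes that rose or fell by over 1.5 times, with the same sign. All 23 had mean levels below the 75th percentile in both knockout groups. Cxcl9 (1.61), Mpeg1 (1.35) and Gbp4 (1.16) kept differences above 1. Others became small, such as C1qc (0.23), Cd53 (0.38), Ctss (0.40), Serpinb2 (0.45), Areg (0.47) and Ccna1 (-0.48). Among all calls the share that rose was 57.8%, 36.1% when arrays were centred on their median and 44.4% when features had to be above background on all 12 arrays.

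**Figure D1:**
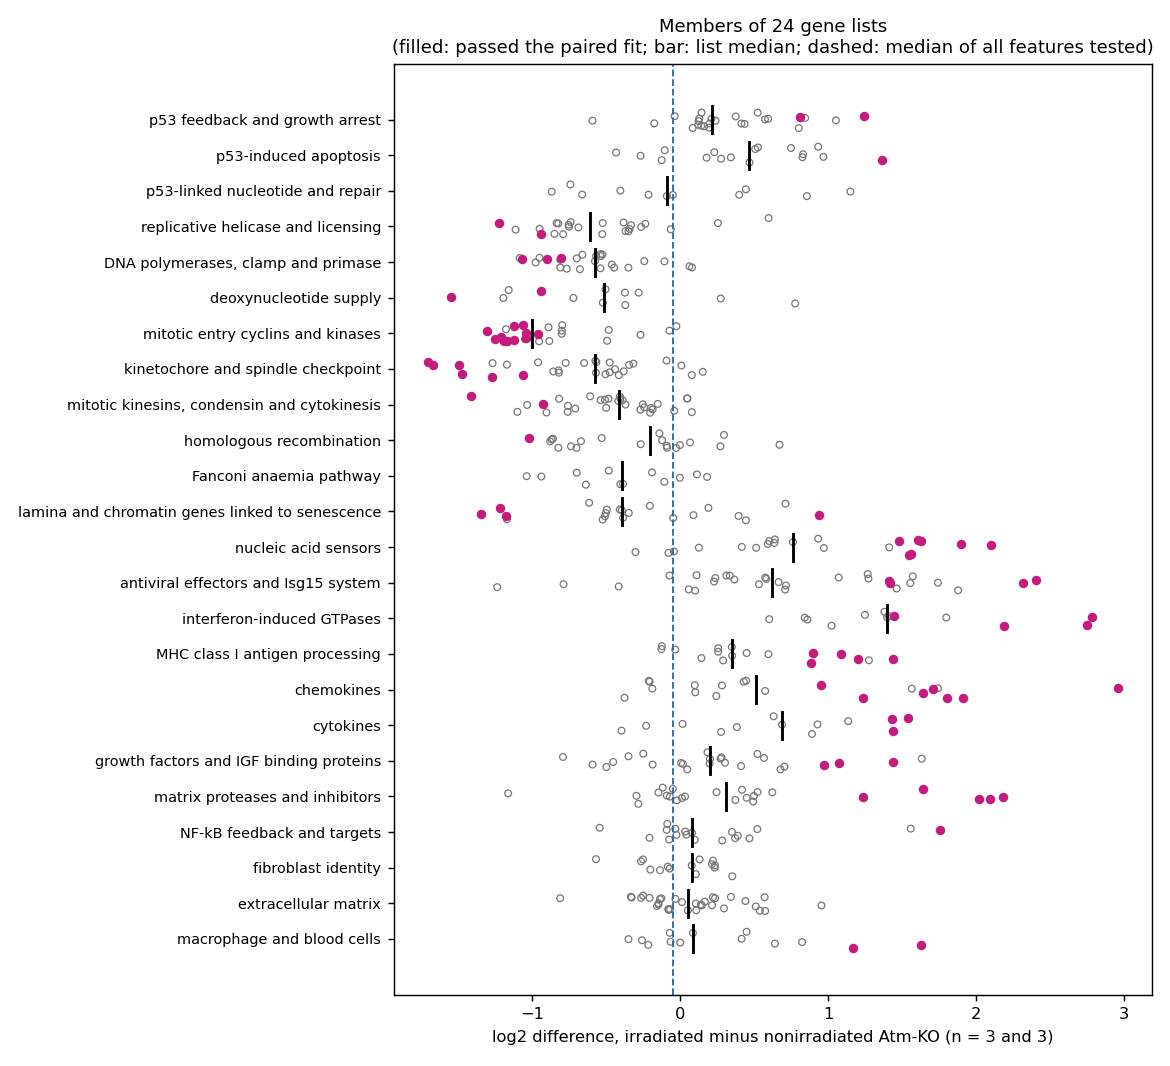
Each point is 1 tested gene of 1 of 24 lists, at its log2 difference between 3 irradiated and 3 nonirradiated Atm-KO arrays; filled points passed limma's paired fit, black bars are list medians and the dashed line is the median of all features (-0.048). The replication and mitosis lists lie to the left, with a median of -1.0 for mitotic entry genes, and the interferon, chemokine and cytokine lists to the right, with a median of 1.4 for the interferon-induced GTPases.

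Genes of cell division were lower in irradiated knockout cells, and the mitotic entry genes had the most calls of these lists. All 24 of 24 tested members of that list had a negative difference (median -1.0), 11 fell and 0 rose, against 0.863% of all features that fell. The 11 that fell lay between -1.30 and -0.96. They include the mitotic cyclins, which activate Cdk1. Ccnb2, a B-type cyclin, lay at 4.20, 3.24 and 3.05 in nonirradiated samples 1 to 3 and 2.27, 2.10 and 2.20 in irradiated samples 1 to 3, a difference of -1.30 ± 0.23 (2.47-fold lower, adjusted p = 0.0276). Its groups did not overlap, and nonirradiated sample 1 was the highest. Ccnb1, the main mitotic cyclin, read 0.54, -0.54 and -0.82 on the nonirradiated arrays and -0.63, -1.71 and -1.85 on the irradiated arrays, with a difference of -1.12 ± 0.18 (adjusted p = 0.0234). Each irradiated sample was below its own pair, although irradiated sample 1 lay above 1 of the nonirradiated samples, so the groups overlapped. Leaving out nonirradiated array 1 gave -0.72. Other Ccnb1 probes gave -0.64 and -0.69. Ccna2, the cyclin of S phase and G2, showed the same overlap at 2.28, 1.48 and 1.26 on the nonirradiated arrays and 1.37, -0.082 and 0.20 on the irradiated arrays (difference -1.17 ± 0.19). Aurkb, the kinase of the chromosomal passenger complex, fell by 2.31-fold (difference -1.21 ± 0.21). Ccna1, a cyclin best known from the male germ line and outside the list, fell by 3.24-fold (-1.70 ± 0.33, or -0.48 with normexp). Without the first pair the list's median was -0.734 and 1 member fell, and without the third 0 did. With normexp 0 fell (median -0.862), as on the 6 knockout arrays alone (0).

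Kinetochore and spindle checkpoint genes, whose products attach chromosomes to microtubules, followed with 6 of 29 lower, 0 higher and a median of -0.57. Spc24, a subunit of the NDC80 complex, lay at 1.13, 0.24 and 0.22 in nonirradiated samples 1 to 3 and -1.59, -0.91 and -1.02 in irradiated samples 1 to 3. This was a 3.25-fold difference (-1.70 ± 0.29, adjusted p = 0.0268), with no overlap. Ska1, which holds kinetochores to moving microtubule ends, read 1.27, 0.45 and 0.13 on the nonirradiated arrays and -0.85, -1.12 and -1.20 on the irradiated arrays (difference -1.67 ± 0.20, or -1.05 as the mean of its probes). Birc5, the survivin gene, whose product blocks apoptosis and guides the passenger complex, read 6.09, 5.18 and 4.95 on the nonirradiated arrays and 3.94, 4.06 and 3.80 on the irradiated arrays, and its difference was -1.47 ± 0.23 (adjusted p = 0.0224). Bub1b, which encodes the checkpoint kinase BubR1, fell by 2.42-fold. In all of these the 3 irradiated arrays lay below the 3 nonirradiated ones, as in 10.4% of all features. 4 members fell without the first pair, 7 without the second and 1 without the third.

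Among kinesins, condensin subunits and cytokinesis genes 2 of 30 fell and 0 rose, with a median of -0.41. Espl1, the separase that cuts cohesin at anaphase, fell by 2.66-fold (difference -1.41 ± 0.28, adjusted p = 0.0394), and Racgap1, of the central spindle, by 1.9-fold (-0.93 ± 0.19). Unlike in the lists above, pair 1 had the smallest shift, with medians of -0.10, -0.73 and -0.40 in pairs 1 to 3. Mki67, the common proliferation marker, did not pass. Mki67 levels were 1.09, 0.63 and 0.41 in nonirradiated samples 1 to 3 and 1.17, -0.23 and 0.076 in irradiated samples 1 to 3, so pair 1 did not show the lower level of the other pairs (difference -0.37 ± 0.24, adjusted p = 0.412). Its other probe gave -0.24.

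**Figure D2:**
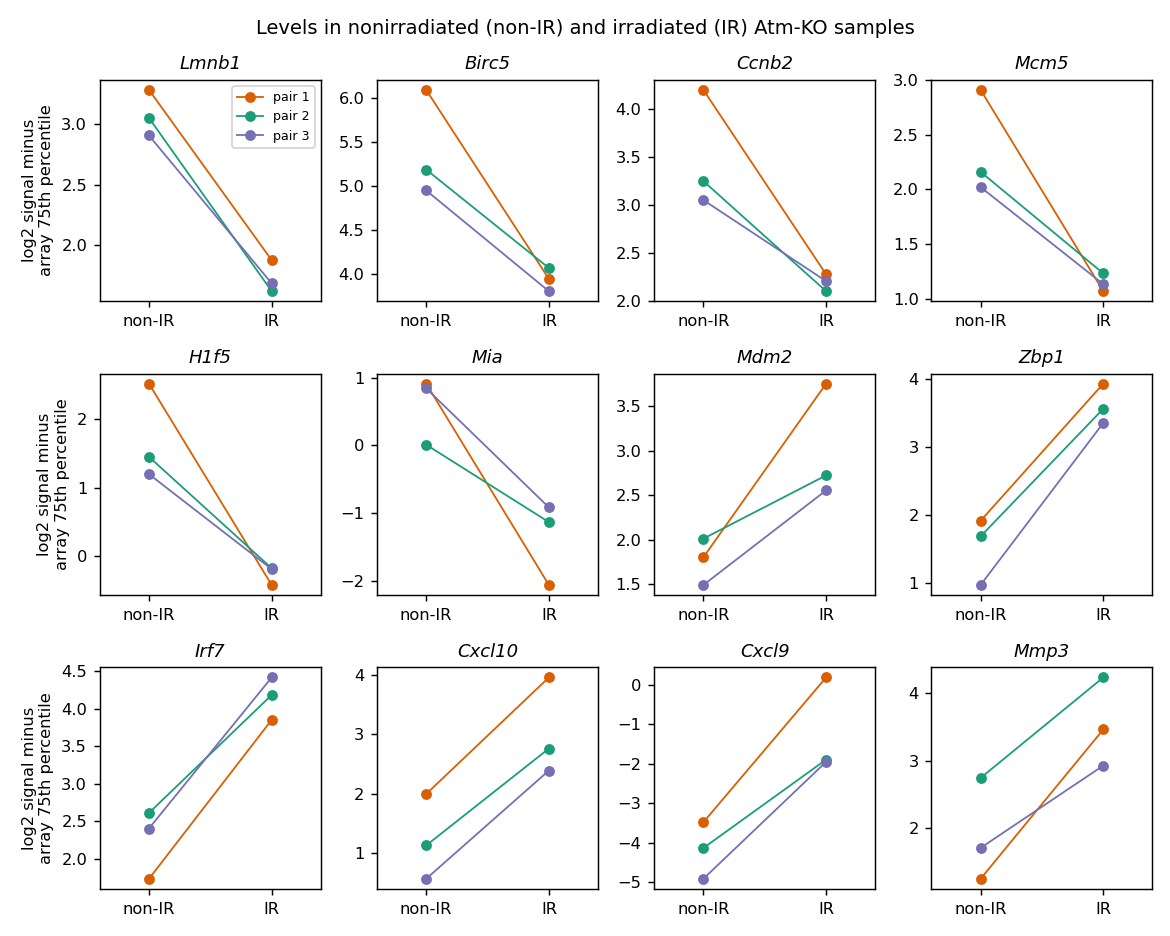
Each panel plots 1 gene's log2 signal minus the array's 75th percentile in the 3 nonirradiated and 3 irradiated Atm-KO samples, with a line joining each pair; panels have their own vertical scale. The levels of Lmnb1, Birc5, Ccnb2, Mcm5, H1f5 and Mia drop in all 3 pairs and those of Mdm2, Zbp1, Irf7, Cxcl10, Cxcl9 and Mmp3 climb, and pair 1 often starts from another level than pairs 2 and 3.

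Some DNA replication genes also fell. Of the MCM helicase and licensing genes 22 of 24 had a negative difference (median -0.61), 2 fell and 0 rose. Mcm5, a subunit of the replicative helicase, lay at 2.91, 2.16 and 2.02 in nonirradiated samples 1 to 3 and 1.07, 1.23 and 1.13 in irradiated samples 1 to 3, a difference of -1.22 ± 0.22 (adjusted p = 0.0309) without overlap. Gmnn, the licensing inhibitor geminin, made in S phase and G2, fell by 1.92-fold (-0.94 ± 0.18, or -0.53 without nonirradiated array 1). Mcm2 read 2.55, 2.46 and 2.25 on the nonirradiated arrays and 1.35, 1.79 and 1.57 on the irradiated arrays, also without overlap, but did not pass (difference -0.85 ± 0.19, adjusted p = 0.0612). Of polymerase, clamp and primase genes 3 of 25 fell, 0 rose, and the median was -0.58. Those were Rpa3 (-1.07), a subunit of the single-strand binding protein RPA, Prim1 (-0.90), the primase, and Rfc4 (-0.80), of the clamp loader. In the deoxynucleotide list 2 of 12 fell and 0 rose (median -0.51). Tk1, the S-phase thymidine kinase, read 3.89, 3.01 and 2.58 on the nonirradiated arrays and 1.33, 1.81 and 1.68 on the irradiated arrays, a 2.93-fold difference (-1.55 ± 0.29, adjusted p = 0.0337). Tyms, thymidylate synthase, fell by 1.92-fold. When the first pair was left out 1 gene fell in the helicase list, 0 in the polymerase list and 1 in the deoxynucleotide list, and without the third 0 in each.

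Repair genes had few calls. In homologous recombination 1 of 20 fell (median -0.20), namely Exo1, an exonuclease of end resection (-1.02 ± 0.17, adjusted p = 0.0244). In the Fanconi anaemia pathway 0 of 12 passed (median -0.40), nor did any of 13 end joining (-0.15) or 14 damage signalling genes (-0.17). Of the G1 cyclin, E2F and Rb genes 1 of 17 fell, E2f7, a repressive E2F that is itself a target of E2F (-1.0 ± 0.18). Mxd3, a Max partner expressed in S phase, fell by 3.33-fold from 1.08, 0.14 and -0.016 on the nonirradiated arrays and -1.66, -1.05 and -1.30 on the irradiated arrays (-1.74 ± 0.29, adjusted p = 0.0252). Its groups did not overlap.

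Promoter sequences of these genes are shown because the CCAAT box and the E2F site are the elements through which the factors NF-Y and E2F are known to act on cell cycle genes. The 250 bases before the start site were read from RefSeq's GRCm38.p6 table for 17 tested mitotic entry genes, and 13 of them (76.5%) held CCAAT on either strand, against 36.4% of 10227 tested genes. The share was as high in lists without calls, at 83.3% for the unfolded protein response and 90.9% for cholesterol synthesis, and 43.8% in all genes that fell. TTTNNCGC, an E2F core, was in 6 of 18 helicase and licensing promoters (33.3%), against 6.87% of tested genes and 12.5% of those that fell. Over lists without calls its share ran from 0% for cholesterol synthesis to 25% for damage signalling. The letters overlapped in 3 of the tested promoters. A match is a description and not a binding site. The windows below, on the gene's own strand with matches in capitals, are Ccnb1 at chr13:100786529-100786605 and Ccnb2 at chr9:70421555-70421661, both on the minus strand, for CCAAT, and Mcm5 at chr8:75109336-75109387 on the plus strand for the E2F core, which matches on both strands there.
Ccnb1: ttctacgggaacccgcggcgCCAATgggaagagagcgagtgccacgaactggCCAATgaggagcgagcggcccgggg
Ccnb2: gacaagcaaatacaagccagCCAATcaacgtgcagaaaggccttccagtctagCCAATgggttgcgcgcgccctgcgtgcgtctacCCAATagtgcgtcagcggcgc
Mcm5: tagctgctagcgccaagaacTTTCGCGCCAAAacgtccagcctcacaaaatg

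Nuclear lamina and chromatin genes that mark senescence changed in both directions, with 3 of 21 lower and 1 higher (median -0.39). Lmnb1, lamin B1, whose loss is a known senescence marker, lay at 3.28, 3.05 and 2.90 in nonirradiated samples 1 to 3 and 1.88, 1.62 and 1.69 in irradiated samples 1 to 3. All irradiated samples were below all nonirradiated ones, and the difference was -1.35 ± 0.18 (2.55-fold lower, adjusted p = 0.0159), of like size in each pair. Hmgb2, a chromatin protein lost early in senescence, read 3.56, 3.08 and 2.78 on the nonirradiated arrays and 2.49, 1.64 and 1.77 on the irradiated arrays (-1.18 ± 0.18), and H2az1, a histone variant of proliferating cells, fell by 2.32-fold. The other Hmgb2 probe gave -0.85. Hmga2, an architectural protein of embryonic and senescent chromatin, rose by 1.92-fold (0.94 ± 0.18, adjusted p = 0.0382). Under median centring 0 members rose and 4 fell.

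Among the genes with the lowest differences were 4 replication-dependent histone genes. The lists held the histone variants H2az1 and H2ax but none of these 4 genes. Of 26 replication-dependent histone genes tested, picked by symbol, 4 fell and 19 were negative, while 5 of 6 H2B genes were positive. H1f5, a linker histone, lay at 2.52, 1.45 and 1.20 in nonirradiated samples 1 to 3 and -0.42, -0.18 and -0.19 in irradiated samples 1 to 3, a 3.96-fold difference (-1.99 ± 0.29, adjusted p = 0.0179). The 3 irradiated samples were nearly level while the nonirradiated ones were higher, sample 1 most of all. H2ac4 (-1.79 ± 0.32), H2ac13 (-1.77 ± 0.31) and H2ac15 (-1.77 ± 0.31) are near-identical H2A genes whose probes can share signal, so they count as less than 3 separate measurements. In each, as in H1f5, nonirradiated sample 1 was the highest and irradiated sample 1 the lowest.

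The cell cycle inhibitors did not rise as a list: 0 of 7 rose, 1 fell, and the median was -0.62. Cdkn1c, the imprinted p57 gene, read 6.02, 4.86 and 5.75 on the nonirradiated arrays and 4.68, 4.25 and 4.65 on the irradiated arrays and fell by 2.03-fold (-1.02 ± 0.20, adjusted p = 0.0382). Cdkn2a, which encodes p16 and p19Arf, read 1.85, 2.82 and 2.45 on the nonirradiated arrays and 1.38, 2.54 and 1.36 on the irradiated arrays, with overlap (difference -0.62 ± 0.35, adjusted p = 0.347). Its sign was negative in each pair, pair 3 most. Cdkn1a, the p53 target p21, lay at 4.70, 5.15 and 4.59 in nonirradiated samples 1 to 3 and 4.88, 5.86 and 5.48 in irradiated samples 1 to 3. Every irradiated sample was above its pair, by little in pair 1, and the difference of 0.59 ± 0.19 (1.51-fold) did not pass (adjusted p = 0.145).

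Of other p53 targets few passed. In the feedback and growth arrest list 22 of 25 were positive (median 0.21), and 2 rose, against 1.18% of all features. In the apoptosis list 13 of 17 were positive (median 0.47) and 1 rose. In the nucleotide and repair list 0 of 11 passed (-0.09). Mdm2, the ligase that degrades p53, lay at 1.80, 2.01 and 1.49 in nonirradiated samples 1 to 3 and 3.75, 2.72 and 2.56 in irradiated samples 1 to 3, without overlap, a 2.36-fold difference (1.24 ± 0.26, adjusted p = 0.0488). Its other probe gave 1.41. Pmaip1, which encodes the BH3-only protein Noxa, read 1.61, 1.81 and 0.85 on the nonirradiated arrays and 3.61, 2.41 and 2.35 on the irradiated arrays (1.36 ± 0.27, adjusted p = 0.042). Gdf15, a secreted stress cytokine and p53 target, read 1.21, 1.91 and 1.74 on the nonirradiated arrays and 1.87, 2.79 and 2.62 on the irradiated arrays, with irradiated sample 1 inside the nonirradiated range (0.81 ± 0.17, adjusted p = 0.049). Trp53inp1, a p53 cofactor, lay at 2.43, 2.83 and 2.34 on the nonirradiated arrays and 4.18, 3.17 and 3.41 on the irradiated arrays, without overlap (1.05 ± 0.31, adjusted p = 0.114), and Ccng1, cyclin G1, at 3.34, 2.87 and 2.20 on the nonirradiated arrays and 3.70, 3.32 and 3.12 on the irradiated arrays (0.57 ± 0.21, adjusted p = 0.179). Neither passed. Without the first pair 0 growth arrest genes and 1 apoptosis gene rose, without the third 0 and 0.

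Some interferon-response genes rose in irradiated knockout cells, among them sensors, a transcription factor and effectors. Of 21 tested nucleic acid sensors 7 rose and 0 fell (median 0.76). Zbp1, a sensor of Z-form nucleic acid that can trigger cell death, lay at 1.91, 1.68 and 0.96 in nonirradiated samples 1 to 3 and 3.94, 3.57 and 3.36 in irradiated samples 1 to 3. Irradiated samples were 1.89 to 2.39 units above their pairs and the groups did not overlap, a 4.29-fold difference (2.10 ± 0.21, adjusted p = 0.00894). Oasl1, a negative regulator of Irf7 translation, read 0.84, 0.48 and 0.096 on the nonirradiated arrays and 2.34, 1.84 and 2.05 on the irradiated arrays (1.6 ± 0.21, adjusted p = 0.0144). Oas2, a synthetase that activates RNase L, read -0.49, 1.36 and 0.77 on the nonirradiated arrays and 1.68, 2.22 and 2.41 on the irradiated arrays (1.56 ± 0.26), with nonirradiated sample 1 the lowest. Ifi205 (1.62 ± 0.26, or 0.60 with normexp) belongs to the p200 family of DNA sensors. Its members are close in sequence, so the Ifi205 probe may also read relatives. When the first pair was left out 2 sensors rose, and without the third 2.

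Among genes of interferon signalling and its transcription factors 1 of 20 rose and the median was 0.061. It was Irf7, the factor that amplifies type I interferon. Irf7 lay at 1.74, 2.61 and 2.40 in nonirradiated samples 1 to 3 and 3.85, 4.18 and 4.41 in irradiated samples 1 to 3, without overlap, a 3.73-fold difference (1.90 ± 0.24, adjusted p = 0.0138), and was not called without the first pair.

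Of 30 antiviral effectors and Isg15-system genes 4 rose and 0 fell (median 0.62). Rsad2, viperin, which makes a chain-terminating nucleotide, read -1.25, -0.84 and -1.31 in nonirradiated samples 1 to 3 and 2.56, 0.41 and 0.82 in irradiated samples 1 to 3. The nonirradiated samples were alike and irradiated sample 1 was far the highest, and the difference was 2.40 ± 0.42 (5.28-fold, adjusted p = 0.0281). Ifi44l, an interferon-induced gene of the same response, read -4.71, -4.16 and -4.14 on the nonirradiated arrays and -1.62, -2.43 and -2.03 on the irradiated arrays (2.32 ± 0.35). Cmpk2, the mitochondrial kinase encoded beside Rsad2, rose by 2.66-fold and Sp100, a nuclear body component, by 2.67-fold. The Cmpk2 difference of 1.41 was 0.94 without irradiated array 1. Isg15, the ubiquitin-like modifier, was far above the 75th percentile with or without irradiation, at 6.61, 6.96 and 6.80 on the nonirradiated arrays and 6.92, 7.31 and 7.06 on the irradiated arrays, and its difference of 0.31 ± 0.18 did not pass (adjusted p = 0.363). Trim30d, of the Trim30 family on no list, read -4.33, -3.60 and -3.94 on the nonirradiated arrays and -0.43, -2.32 and -1.90 on the irradiated arrays, also highest in irradiated sample 1 (2.40 ± 0.50). Without the first pair 0 of the list rose, without the second 9 and without the third 0.

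The interferon-induced GTPases, which attack the membranes around intracellular pathogens, had the highest median of the lists in the strip plot. All 13 of 13 tested were higher in every pair, the groups did not overlap in 13 (against 6.70% of all features higher without overlap), and 4 rose (median 1.4). Of the 13, 12 were well above background on all 6 knockout arrays. Gbp4 read -3.99, -4.85 and -5.57 in nonirradiated samples 1 to 3 and -0.19, -2.98 and -2.90 in irradiated samples 1 to 3, a 6.88-fold difference (2.78 ± 0.40, adjusted p = 0.0179). It was not well above background on all 12 arrays. Gvin1, a very large GTPase, read -2.56, -2.92 and -3.69 on the nonirradiated arrays and 1.44, -1.08 and -1.30 on the irradiated arrays (2.75 ± 0.40, adjusted p = 0.0179). Tgtp1, a T-cell specific GTPase by name, read 0.32, 1.0 and 0.43 on the nonirradiated arrays and 3.73, 2.30 and 2.27 on the irradiated arrays (2.18 ± 0.37). Gbp5 (1.45 ± 0.24) and Gbp8 (1.91 ± 0.32, outside the list) also rose. With normexp the differences were 1.16 for Gbp4, 0.57 for Gbp5 and 0.93 for Gbp8. Guanylate-binding genes are similar to each other, so probes may share signal. In each of these genes irradiated sample 1 was the highest of all 6, and the list's median was 2.47 in pair 1, 0.63 in pair 2 and 1.1 in pair 3. When the first pair was left out 0 rose, and without the second 6. Without the third, 14 of all 18430 features rose.

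**Figure D3:**
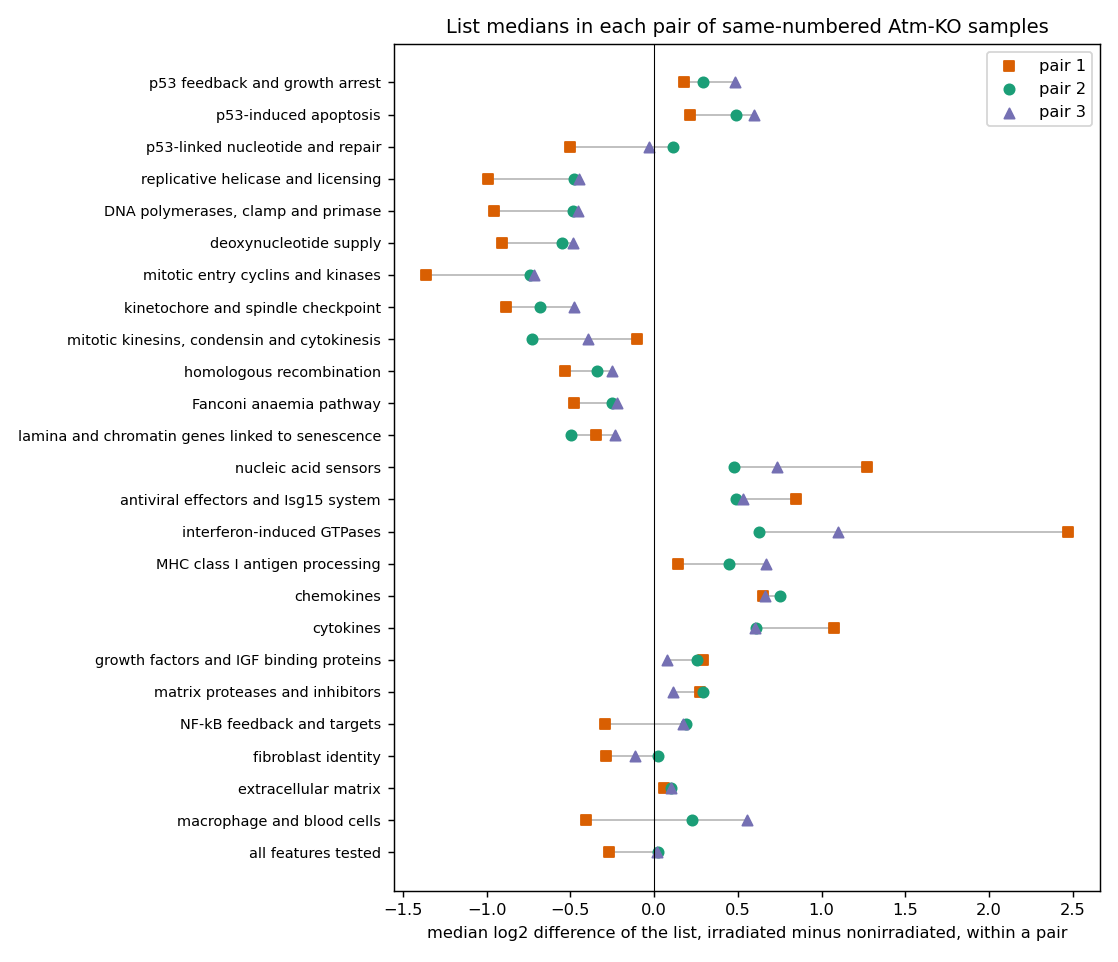
For each list, and for all features tested, the 3 symbols give the median log2 difference within pairs 1, 2 and 3 of Atm-KO samples. Pair 1 lies outside the other 2 for the mitotic entry list (-1.36) and the GTPases (2.47), the 3 pairs lie close together for chemokines and extracellular matrix, and the macrophage list runs from -0.40 to 0.56.

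The interferon-stimulated response element, through which interferon is known to induce genes, has the core GAAANNGAAA. It stood on either strand in the 250 bases before the start of 8 of the 9 GTPase genes in the table (88.9%), 6 of 16 sensors (37.5%) and 7 of 25 antiviral genes (28%), against 2.65% of all tested genes. Of the genes that rose it was in 19 of 112 (17%), and of those that fell in 3 of 96 (3.12%). The windows shown, with the core in capitals, are those of Tgtp1 (chr11:48992294-48992343, minus strand), Gbp5 (chr3:142496749-142496798, plus strand) and Rsad2 (chr12:26456543-26456592, minus strand), which rose, and of Isg15 (chr4:156200855-156200916, minus strand), where 3 matches overlap and which did not. Windows read along the gene, so a core on the other strand appears as its reverse complement.
Tgtp1: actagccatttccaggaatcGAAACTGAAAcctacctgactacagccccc
Gbp5: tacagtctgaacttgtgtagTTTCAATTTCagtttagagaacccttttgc
Rsad2: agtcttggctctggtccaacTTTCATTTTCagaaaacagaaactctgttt
Isg15: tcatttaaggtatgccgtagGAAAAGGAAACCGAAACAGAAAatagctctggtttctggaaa

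Some genes of class I antigen presentation rose as well. Of 17 tested genes 5 rose and 0 fell (median 0.35), and the called genes were class I heavy chains. H2-D1 lay at 4.19, 4.51 and 5.31 in nonirradiated samples 1 to 3 and 5.21, 6.37 and 6.75 in irradiated samples 1 to 3, a difference of 1.44 ± 0.20 (2.71-fold, adjusted p = 0.0179). Both groups were lowest in sample 1, so they overlapped although every pair moved up. H2-Q4 (1.20 ± 0.17), H2-Q7 (1.09 ± 0.17) and H2-K1 (0.88 ± 0.17) were also lowest in sample 1 of both groups. Class I genes are close copies of each other, and a probe may read several. Without the first pair 4 rose, without the third 0. Cd274, which encodes the checkpoint ligand PD-L1, read -3.71, -4.42 and -5.07 on the nonirradiated arrays and -0.96, -2.92 and -3.08 on the irradiated arrays and rose by 4.23-fold (2.08 ± 0.32, adjusted p = 0.022).

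Chemokines were the secreted group with the most calls. Of 20 tested 7 rose and 0 fell, with a median of 0.51, or 0.44 with genes not above background in 1 group set at their bounds. Cxcl9, an interferon-gamma-induced ligand of the receptor CXCR3, had the highest difference of the genes named. Cxcl9 lay at -3.49, -4.14 and -4.92 in nonirradiated samples 1 to 3 and 0.18, -1.90 and -1.96 in irradiated samples 1 to 3, a 7.76-fold difference (2.96 ± 0.27, adjusted p = 0.00502). Irradiated sample 1 was far the highest, and the groups did not overlap. Cxcl10, of the same receptor, read 1.99, 1.13 and 0.57 on the nonirradiated arrays and 3.95, 2.76 and 2.39 on the irradiated arrays (1.80 ± 0.18, adjusted p = 0.00894), with like differences in the 3 pairs. Ccl5, which attracts T cells, read 2.13, 2.83 and 2.66 on the nonirradiated arrays and 3.78, 4.34 and 4.41 on the irradiated arrays (1.64 ± 0.20, adjusted p = 0.0136), and Ccl8, a monocyte attractant, 0.19, 0.23 and -1.52 on the nonirradiated arrays and 1.74, 2.16 and 0.74 on the irradiated arrays (1.91 ± 0.23). Of the list 6 rose without the first pair, 6 without the second and 4 with normexp, but 1 without the third.

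Of 13 tested cytokines 3 rose and 0 fell (median 0.69). Il6, the main cytokine of senescent fibroblasts, lay at -1.68, -3.03 and -3.75 in nonirradiated samples 1 to 3 and -0.24, -1.67 and -2.24 in irradiated samples 1 to 3. Every pair moved up by more than 1 unit, but nonirradiated sample 1 nearly equalled irradiated sample 2 and lay above irradiated sample 3, so the groups overlapped (1.44 ± 0.21, 2.7-fold, adjusted p = 0.0183, or 0.86 without irradiated array 1). Spp1, osteopontin, a secreted matrix protein and cytokine, read 6.29, 6.61 and 5.24 on the nonirradiated arrays and 7.70, 8.01 and 7.04 on the irradiated arrays (1.54 ± 0.20, adjusted p = 0.0154). Tslp, an epithelial and stromal alarmin, read -3.47, -2.30 and -2.53 on the nonirradiated arrays and -1.12, -1.31 and -1.58 on the irradiated arrays (1.43 ± 0.29). Of growth factors and IGF binding proteins 3 of 25 rose (median 0.20). These were Areg, an EGF receptor ligand (1.44 ± 0.19), Fgf2, the basic fibroblast growth factor (1.07 ± 0.19), and Bdnf, a neurotrophin (0.97 ± 0.18). With normexp the differences were 0.47 for Areg and 0.56 for Fgf2. When the first pair was left out 1 cytokine and 1 growth factor rose, and without the third 0 of each.

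Of the matrix proteases and their inhibitors 5 of 24 rose and 0 fell (median 0.31). Mmp3, stromelysin 1, lay at 1.25, 2.74 and 1.70 in nonirradiated samples 1 to 3 and 3.46, 4.23 and 2.93 in irradiated samples 1 to 3, a 3.12-fold difference (1.64 ± 0.24, adjusted p = 0.0179). The groups did not overlap, by a small margin, and sample 2 was the highest of both. Mmp10, stromelysin 2, read -4.39, -3.97 and -5.91 on the nonirradiated arrays and -1.57, -2.26 and -3.90 on the irradiated arrays (2.18 ± 0.23, adjusted p = 0.00956), and Mmp13, the main interstitial collagenase of the mouse, -0.36, -1.58 and -3.36 on the nonirradiated arrays and 2.10, 0.25 and -1.38 on the irradiated arrays (2.09 ± 0.28, adjusted p = 0.0154). Sample 1 was the highest and sample 3 the lowest of both Mmp13 groups, which overlapped although pairs differed by 1.83 to 2.46 units. The Mmp13 difference was 1.20 without irradiated array 1 and 1.29 without nonirradiated array 3. Serpinb2, an inhibitor of plasminogen activators, rose by 4.05-fold (2.02 ± 0.32). With normexp the differences were 0.45 for Serpinb2 and 0.82 for Mmp10, and neither gene was well above background on all 12 arrays. Without the first pair 1 of the list rose, without the second 5 and without the third 1.

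The AP-1 site TGANTCA, bound by Fos and Jun dimers, stood in 5 of 15 promoters of that list (33.3%), against 4.45% of all tested genes and 12 of the 112 that rose. In other lists its share ran from 0%, as for immediate early genes, to 24% for antiviral genes, with 22.2% for cytokines. The windows of the called members Mmp3 (chr9:7445756-7445802), Mmp10 (chr9:7502259-7502305), Mmp13 (chr9:7272459-7272505) and Serpinb2 (chr1:107511309-107511355) are all on the plus strand of GRCm38.p6, with the site in capitals. The 3 protease genes are neighbours on 1 chromosome.
Mmp3: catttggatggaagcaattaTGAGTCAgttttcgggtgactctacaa
Mmp10: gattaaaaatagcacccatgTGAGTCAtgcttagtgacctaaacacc
Mmp13: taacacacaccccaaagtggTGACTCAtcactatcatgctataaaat
Serpinb2: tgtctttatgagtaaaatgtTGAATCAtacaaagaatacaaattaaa

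Fosl1, the Fos-family member Fra-1, was the 1 of 17 immediate early genes that rose (median -0.11), at -1.82, -0.53 and -1.0 on the nonirradiated arrays and -0.64, 0.79 and 0.13 on the irradiated arrays (1.21 ± 0.17, adjusted p = 0.0179). In the NF-kB feedback list 1 of 19 rose (median 0.08): Saa3, an acute-phase protein of stromal cells (1.75 ± 0.20, or 0.94 without nonirradiated array 3). Inhba, activin A, rose by 2.84-fold (1.51, or 0.91 without irradiated array 1). The list of TGF-beta and BMP targets had a median of 0.12 over 18 tested genes.

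Genes best known from macrophages also rose from a low level. Mpeg1, which encodes the pore-forming perforin-2, lay at -4.11, -3.92 and -4.10 in nonirradiated samples 1 to 3 and -0.79, -1.93 and -1.77 in irradiated samples 1 to 3, a 5.84-fold difference (2.55 ± 0.27, adjusted p = 0.0099). The nonirradiated samples were nearly level, and the groups did not overlap. As the mean of its probes the difference was 1.25. Its other probe was not well above background on all 3 arrays of either knockout group. Ctss, the lysosomal protease cathepsin S and the 1 of 25 lysosome genes that rose, read -3.18, -6.26 and -5.43 on the nonirradiated arrays and -2.0, -4.80 and -3.99 on the irradiated arrays (1.36 ± 0.17), and its groups overlapped, with sample 1 the highest of both. In the macrophage and blood cell marker list 2 of 13 tested genes rose, Cd53, a leukocyte tetraspanin (1.63 ± 0.24), and C1qc, a complement chain (1.17 ± 0.21), and the median was 0.086. Cd53 was well above background on 1 of 3 nonirradiated and 2 of 3 irradiated knockout arrays and C1qc on 1 of 3 of each. Both were tested only because wild-type arrays measured them, so their knockout differences rest largely on values below background. Differences of the dim genes depended on single arrays: without irradiated array 1 the differences were 0.55 for Ctss, 0.76 for Cd53 and 0.19 for C1qc, and without nonirradiated array 1 they were 2.25, 2.68 and 2.13. C1qc was 0.59 and 0.77 without nonirradiated arrays 2 and 3, Ctss 0.70 without nonirradiated array 2 and Cd53 1.04 without nonirradiated array 3. Summed over 15 markers, the level relative to the 75th percentile was 0.693 to 1.21 in nonirradiated and 0.867 to 1.02 in irradiated samples. Of the 13 tested markers 7 had a positive and 6 a negative difference, from -0.35 to 1.63. The part of blood cells in these differences was not tested. In RNA from whole cultures, more cells of a type and more RNA per cell cannot be told apart.

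Apart from these groups, the genes with the lowest differences had mixed roles. Nfe2, a haematopoietic transcription factor, read -2.94, -1.62 and -1.07 on the nonirradiated arrays and -5.43, -3.46 and -2.75 on the irradiated arrays, a 4.01-fold difference (-2.0 ± 0.22, adjusted p = 0.0118), with each pair lower but nonirradiated sample 1 below an irradiated one. Leaving out irradiated array 1 gave -1.23. Mia, a secreted protein of cartilage and melanoma, read 0.91, 0.011 and 0.84 on the nonirradiated arrays and -2.06, -1.13 and -0.92 on the irradiated arrays (-1.96 ± 0.31). Pcp4, a calmodulin regulator, fell by 3.43-fold (-1.78 ± 0.26) and Ptgds, prostaglandin D synthase, by 3.29-fold (-1.72 ± 0.22, with overlap). The Ptgds difference was -0.95 without irradiated array 2, -1.02 without nonirradiated array 1 and -2.63 without nonirradiated array 2.

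Several programmes showed 0 calls in the paired fit. These were fibroblast identity (15 tested, median 0.077), extracellular matrix (33, 0.052), smooth muscle and myofibroblast genes (9, -0.16), Nrf2 and antioxidant genes (24, -0.074), the unfolded protein response (19, -0.043), hypoxia and glycolysis (20, 0.082) and ribosome biogenesis (18, 0.13). Cholesterol synthesis and uptake also had 0 calls, with 17 of 19 genes negative and a median of -0.27.

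Set against the wild-type cells, most of the knockout response had the same sign. Of the 377 features called in knockout cells 366 had the same sign in Atm-WT cells, and 178 were also called there by the paired fit (2.26% of all features were). The share of all features with the same sign was not counted, so 366 cannot be read as particular to the called features. Over all features the knockout and wild-type differences correlated at r = 0.653. Irradiated arrays lay at positions 2 or 4 in both genotypes, so a shared sign cannot be told apart from array position. At an unadjusted p below 0.05, 6.46% of features passed in wild-type cells without pairing and 15.4% with it. Features that rose had a median of 1.42 in knockout and 1.09 in wild-type cells, and those that fell -1.21 and -0.92. The difference between the effects passed for 1 feature without pairing (Oas1a, 0.00543%) and for 4 with it (0.0217%): Oas1a, Oas1f, Usp18 and Isg15. At an unadjusted p below 0.05 it passed for 0.901% without pairing and 3.30% with it. The mitotic entry list had medians of -1.0 and -0.82 in knockout and wild-type cells, and chemokines 0.51 and 0.35. Among interferon lists the medians were 0.061 and 0.12 for signalling and transcription factors, 0.62 and 1.63 for antiviral effectors and 1.4 and 2.52 for GTPases, and 0 of the GTPases passed the test of the difference.

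**Figure D4:**
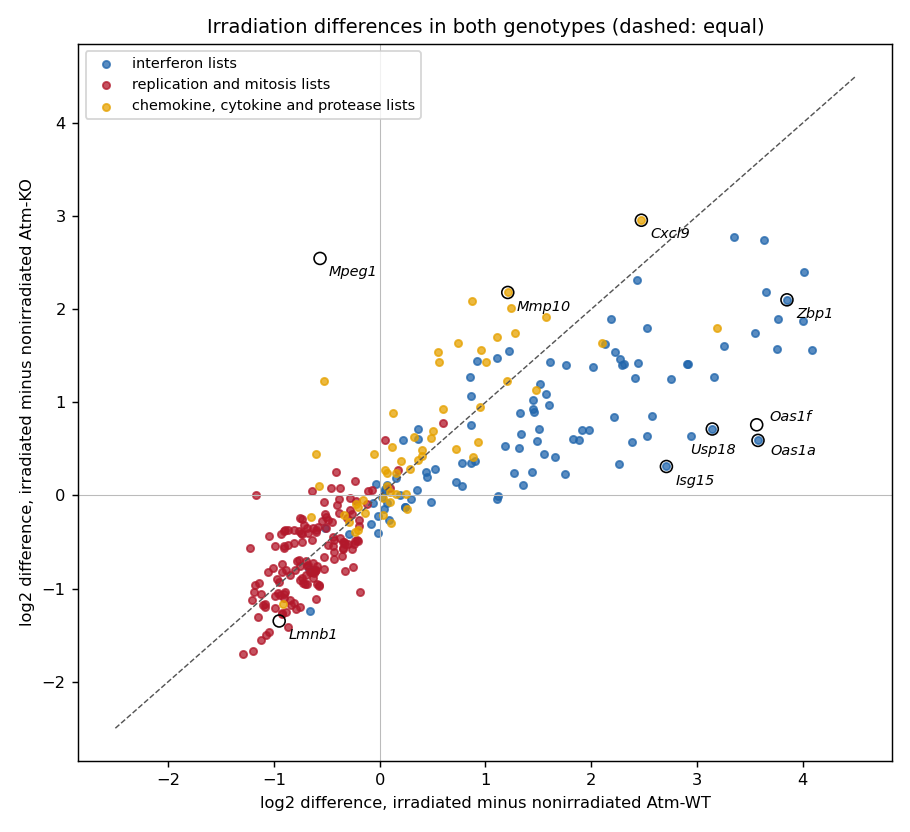
Each point is 1 tested gene, at its log2 irradiation difference in Atm-WT cells (horizontal) and Atm-KO cells (vertical), for interferon, replication and mitosis, and chemokine, cytokine and protease lists; circled genes are named. Many interferon genes lie below the dashed line of equal differences, with Oas1a at 3.58 and 0.59, and Mpeg1 lies far above it at -0.56 and 2.55.

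All 4 genes that passed had higher levels in nonirradiated knockout than in nonirradiated wild-type cells, and smaller differences with irradiation. Oas1a, a synthetase of the RNase L pathway, was at -1.37, -0.52 and -0.84 on the nonirradiated and 2.51, 2.74 and 2.76 on the irradiated Atm-WT arrays, and at 4.01, 4.35 and 4.03 on the nonirradiated arrays and 4.58, 4.81 and 4.77 on the irradiated arrays of the knockout. Nonirradiated knockout samples were thus above irradiated wild-type ones, and the difference of effects was -2.99 ± 0.27 (adjusted p = 0.0167). Usp18, which strips Isg15 from proteins and damps the interferon receptor, was at 0.73, 1.49 and 1.15 on the nonirradiated and 4.11, 4.41 and 4.27 on the irradiated Atm-WT arrays, and at 3.89, 4.32 and 4.21 on the nonirradiated arrays and 4.80, 5.01 and 4.74 on the irradiated arrays of the knockout (difference of effects -2.43 ± 0.26, adjusted p = 0.0287). Isg15 was at 3.56, 4.54 and 4.46 on the nonirradiated and 6.59, 7.19 and 6.92 on the irradiated Atm-WT arrays, so both irradiated groups and the nonirradiated knockout lay within 1 unit (-2.40 ± 0.26, adjusted p = 0.0287). Oas1f, of the same family as Oas1a and possibly sharing probe signal with it, differed by -2.81 ± 0.26 (adjusted p = 0.0167). In knockout cells alone, none of the 4 passed, with adjusted p of 0.139, 0.0861, 0.363 and 0.0748. Without the first knockout pair 0 features passed the test of the difference, without the second 3 and without the third 0.

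**Figure D5:**
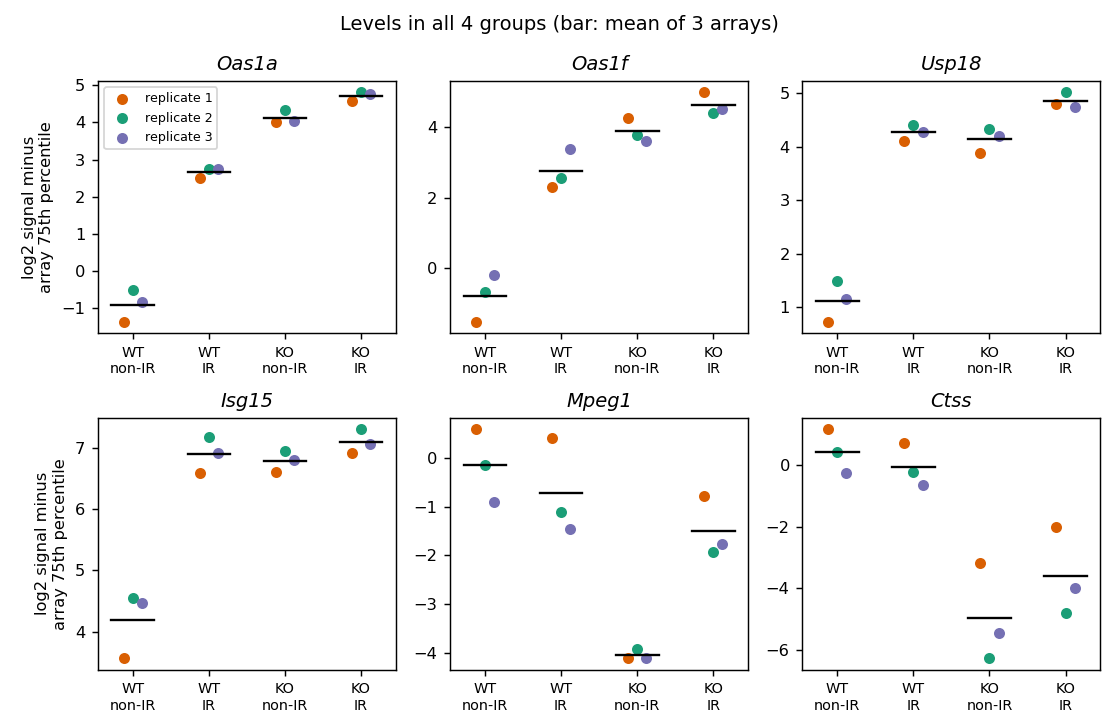
Log2 signal minus the array's 75th percentile of 6 genes in nonirradiated (non-IR) and irradiated (IR) Atm-WT and Atm-KO samples, 3 each, with bars at group means. For Oas1a, Oas1f, Usp18 and Isg15 only nonirradiated wild-type samples are low, and for Mpeg1 and Ctss the nonirradiated knockout samples lie below all wild-type samples and each irradiated knockout sample above its pair.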

How the data were processed

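Cy3-labelled RNA of 12 mouse embryonic fibroblast samples, 3 in each of 4 groups, was hybridised to single-colour Agilent arrays (design 014868), per the labels' protocols. The deposited scanner files hold spot intensity, background-subtracted and detrended within each array by Feature Extraction 10.7.1.1 per the file headers. The submitters' processing notes name version 11.0, which was not resolved. The authors also deposited a table of log2 values, which, once each probe was centred, followed the log2 values described next (r of at least 0.99752 over 41174 of 41250 rows), and served as an alternative. Its column medians ran from -0.426 to 0.268.

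Control spots and outlier spots were left out, the 75th percentile of an array's log2 processed signal (379 to 757 before the log) was subtracted from its values, and spots of a probe were averaged. Probes were named through RefSeq accessions (25097 of 41174, giving 17305 genes), and the probe with the highest mean stood for a gene. Of the named genes 23 had 28 other tested probes, 0 of opposite sign. Sizes differed for some, as for Fgf2 (1.07, other probe 0.65) and Sp100 (1.42, other probe 2.45). A feature was tested when well above background on all 3 arrays of a group, which left 18430, 12805 of them named. Of all probes 55.3% to 64.5% were above background, and 0 spots were saturated. Precision is limited by how many arrays there are.

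The unpaired fit, with a mean for each group, used all 12 arrays and limma (version 3.58.1, under R version 4.3.3, with the package data.table, version 1.17.8, to read files), with Benjamini-Hochberg adjustment at 0.05 (8 residual degrees of freedom). The second fit added the pair of same-numbered samples within a genotype (4 residual degrees of freedom). Pairing by replicate number is an assumption. Deviations from group means correlated at 0.510, 0.269 and 0.503 for same-numbered knockout and at 0.481 to 0.852 for same-numbered wild-type samples. Nonirradiated knockout sample 2 correlated more with irradiated sample 3 (0.335), and irradiated sample 2 more with nonirradiated sample 3 (0.284). Same-numbered samples also shared a slide, so these correlations do not establish the pairs. Where a gene was not above background on any array of a group, its fold is a bound, with each dim array set to the higher of its own value and the lowest signal above background.

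The members, the 43 gene lists and the tests were chosen with earlier results of these data known. Named genes are Atm and a fixed panel, genes called without pairing, the 12 highest and 12 lowest genes called by the paired fit, above background on all 6 knockout arrays and of 1 sign in all pairs, up to 4 called members per list, and genes whose effects differed. Of the 91 named genes 69 had a promoter in the RefSeq table. The median spot and background intensity columns, deposited in the same files, were used for normexp (offset 50) in place of the mean. The other alternatives, 35 in all with normexp and paired versions, were the slide as a term, the knockout arrays alone, quantile normalization, median centring, 2 other filters, the mean of a gene's probes, the deposited table and leaving out samples. Probe coordinates were left out because the files use mm9 and the RefSeq table GRCm38.p6. 1 gene that the rule names is not reported here.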

Additional observations from a re-analysis of the deposited data

Results flagged for a closer look

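The irradiation effect differed between knockout and wild-type cells, by the paired test of the difference, in 4 genes. The knockout effect minus the wild-type effect was -2.99 for Oas1a (knockout 0.59, wild-type 3.58), -2.81 for Oas1f (0.76 and 3.57), -2.43 for Usp18 (0.71 and 3.15) and -2.40 for Isg15 (0.31 and 2.71). Adjusted p was 0.0167, 0.0167, 0.0287 and 0.0287, and without pairing 0.0412, 0.522, 0.0975 and 0.25. In each of these genes all 3 pairs of each genotype were higher with irradiation.

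In 3 further named genes every knockout pair was higher and every wild-type pair lower with irradiation. The difference of effects was 3.11 for Mpeg1, 1.85 for Ctss and 1.81 for C1qc, and did not pass (adjusted p 0.0701, 0.0701 and 0.158). Their levels in nonirradiated cells were higher in wild-type than in knockout samples, for Ctss 1.15, 0.40 and -0.27 on the nonirradiated and 0.70, -0.23 and -0.66 on the irradiated Atm-WT arrays, and for C1qc 0.75, 0.38 and -0.25 on the nonirradiated and -0.34, 0.073 and -0.78 on the irradiated Atm-WT arrays against -4.75, -7.82 and -7.46 on the nonirradiated arrays and -3.57, -6.44 and -6.52 on the irradiated arrays of the knockout. C1qc was well above background on 1 of 3 arrays in each knockout group.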

How the results depend on the processing

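The numbers of calls depended on the fit. For irradiation in knockout cells, 1 feature was called without pairing. The count was 0 with the knockout arrays alone, normexp, quantile normalization, median centring, no filter on dim features or a filter over all 12 arrays (limma, with 697 to 1568 features at an unadjusted p below 0.05). With the replicate block it was 377, and 11 with the knockout arrays alone, 52 with normexp, 276 with quantile normalization, 676 with the filter over all 12 arrays, 377 with the deposited table and 457 with median centring. For the difference of effects the count was 1 without pairing, 0 with the slide as a term, normexp, median centring or no filter, and 2 with quantile normalization. With the block it was 4, and 9 with normexp, 0 with quantile normalization, 13 with the filter over all 12 arrays, 4 with the deposited table and 2 with median centring. Leaving out 1 array gave 0 to 2 calls for irradiation and 0 to 1 for the difference. Leaving out knockout pairs 1, 2 and 3 gave 167, 340 and 19 calls for irradiation with the block and 0 each without it, and 0, 3 and 0 for the difference with the block.

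The 80 named genes that the paired fit called kept their sign in all 35 alternatives in which they were tested. Each had 1 sign in all 3 pairs, so leaving out a knockout pair could not change it. The block, the slide term, the knockout arrays alone and omitting a wild-type array leave the knockout difference unchanged. Under the filter over all 12 arrays 67 were tested. Areg, C1qc, Ccna1, Cd53, Ctss, Cxcl9, Gbp4, Ifi205, Ifi44l, Lhx5, Mmp10, Serpinb2 and Trim30d were not. Of the 80, the paired fit called 36 without replicate 1 of both knockout groups, 62 without replicate 2 and 8 without replicate 3. It called 0 without replicate 1 of all 4 groups. Leaving out 1 array moved at most 8 of the 80 by over 1.5 times, C1qc, Cd53, Ctss and Ptgds most often. Of the 91 named genes only Atm, which did not pass, changed sign in any of these alternatives, to 0.11 with normexp, with and without the replicate block, 0.059 without Nonirradiated Atm-KO replicate 1 and 0.14 without Irradiated Atm-KO replicate 2 (-0.77 to 0.14 over all arrays left out). The median kept its sign in 25 of 43 lists. The other 18, with medians near 0 except skeletal muscle, include interferon signalling, NF-kB, macrophage and fibroblast identity genes. Median centring moved the median of all features from -0.048 to -0.11, and omitting the dim-feature filter to -0.14. Leaving out knockout pairs without the block, leaving out replicate 1 of all groups, and median centring with the block were chosen after seeing the data. The causes of these changes were not tested.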

Other observations

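Replication-dependent core and linker histone genes, chosen for this summary after their values were seen, were split by family in irradiated knockout cells. Of 26 such genes tested 19 had a negative difference, 4 fell and 0 rose by the paired fit (median -0.78). All 8 H2A genes were negative (median -1.09, from -1.79 to -0.16), and 3 of them fell. All 3 H3 genes (median -0.57) and all 4 H4 genes (median -0.82) were negative, with 0 calls. Of 6 H2B genes 1 was negative (median 0.36), with 0 calls. Of 5 H1 genes 3 were negative (median -1.28) and 1 fell. In wild-type cells the medians were -0.19 for all, -0.61 for H2A, 0.57 for H2B, -0.21 for H3, -0.12 for H4 and -0.44 for H1; the difference between genotypes was not tested by family. Probes of near-identical histone genes can share signal.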
